A study of Mus musculus with 15 samples.

Results

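Transcript levels of 9 chromatin enzymes that act at enhancers and promoters were followed in mouse embryonic stem cells (ESCs) after knockdown of Smarcb1, which encodes a core protein of the BAF chromatin remodeller. The genes were Ep300, Crebbp, Hdac1, Hdac2, Kmt2b, Kmt2c, Kmt2d, Kdm6a and Kdm1a. They were taken by symbol, and all 9 were found among the 55228 genes listed. RNA-seq had been performed on 15 libraries of the line 81K1, with 3 libraries in each of 5 groups. Control cells (ctrl) of 48 h and 240 h were untreated, and kd cells received doxycycline daily for 48 h, 72 h or 240 h. Every group, ctrl included, carried the same cassette at Rosa26 in an OG2 background: an shRNA against Smarcb1 behind a promoter that needs doxycycline. The line descends from 1 selected clone, and cells given doxycycline in the absence of this shRNA are not among the libraries analysed here, so the effects of doxycycline and of the knockdown cannot be told apart.

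These enzymes write and erase the marks of active regulatory DNA. The acetyltransferases p300 (Ep300) and CBP (Crebbp) acetylate H3K27 at active enhancers, and the deacetylases HDAC1 and HDAC2 remove acetyl groups as part of the NuRD, SIN3 and CoREST complexes. MLL3 (Kmt2c) and MLL4 (Kmt2d) monomethylate H3K4 at enhancers in a complex with the H3K27 demethylase UTX (Kdm6a), MLL2 (Kmt2b) methylates H3K4 at promoters, including bivalent promoters of ESCs, and LSD1 (Kdm1a) demethylates H3K4 within CoREST and NuRD.

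In the fitted values, Kdm1a changed by -11.4%, -19.5% and -21.3% after 48 h, 72 h and 240 h of knockdown. The fall at 48 h passed in 10 of 19 alternative fits, and an unknown part of the Kdm1a reads may belong to the overlapping gene Luzp1. Hdac1 fell by 31.0% at 72 h and did not pass the test at 240 h, whereas Hdac2, which did not pass at 48 h, fell by 18.0% at 240 h. Kmt2c was higher than control at all 3 times, though at 72 h with 48 h ctrl alone as the control, Ep300 and Crebbp passed the test at 240 h alone, and Kmt2b passed at none. In the main fit all these shifts were under 0.58 on the log2 scale, while over the alternative fits Hdac1 at 72 h reached -0.61. The largest fitted differences of Ep300, Kmt2c and Kmt2d lay between an earlier group and a 240 h group rather than between kd and ctrl.

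For orientation, the 250 bases before the RefSeq start are shown for the 2 genes that passed the test in 1 direction at all 3 times, Kdm1a and Kmt2c, and for Hdac2, whose pattern over the groups was the nearest to that of Kdm1a among the 9 genes. Capitals mark the CCAAT box and the GC box GGGCGG, read on both strands. A window was found for 7 of the 9 genes in the RefSeq table for GRCm38.p6, Hdac1 and Kmt2b being those without one. None of the 3 windows shown overlapped an annotated exon. The Kdm1a window is chr4:136602724-136602973 on the minus strand, that of Hdac2 chr10:36974294-36974543 on the plus strand, and that of Kmt2c chr5:25498784-25499033 on the minus strand.
Kdm1a: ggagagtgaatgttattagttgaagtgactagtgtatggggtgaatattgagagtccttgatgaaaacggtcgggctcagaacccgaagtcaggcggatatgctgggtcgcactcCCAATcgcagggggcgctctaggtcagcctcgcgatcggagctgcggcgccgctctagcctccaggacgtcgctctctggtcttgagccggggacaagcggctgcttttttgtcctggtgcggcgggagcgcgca
Hdac2: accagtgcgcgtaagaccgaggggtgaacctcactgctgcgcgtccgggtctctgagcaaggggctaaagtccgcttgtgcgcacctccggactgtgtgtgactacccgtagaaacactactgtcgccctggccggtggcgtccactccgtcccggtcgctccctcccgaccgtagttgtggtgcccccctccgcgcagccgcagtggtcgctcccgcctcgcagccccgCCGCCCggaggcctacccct
Kmt2c: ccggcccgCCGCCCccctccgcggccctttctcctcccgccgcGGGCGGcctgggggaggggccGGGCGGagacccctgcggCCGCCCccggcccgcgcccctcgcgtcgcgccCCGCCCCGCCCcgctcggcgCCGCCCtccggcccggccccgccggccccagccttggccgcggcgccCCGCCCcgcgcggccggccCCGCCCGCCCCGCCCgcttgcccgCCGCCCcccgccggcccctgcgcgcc
The Kmt2c window was 91.6% G or C with 48 CpG dinucleotides and held 12 GC boxes, some of them overlapping. The Hdac2 window was 68.8% G or C with 27 CpG and 1 GC box, and the Kdm1a window was 59.2% G or C with 21 CpG, 1 CCAAT box and no GC box. Over all 32851 windows of the table the medians were 52.4% and 6 CpG. A GC box was present in 32.7% of all windows and in 6 of the 7 windows of these genes, a CCAAT box in 33.8% and in 1 of 7. CACGTG was found in 6.02% of all windows and in 1 of the 7, and TATAAA in 12.4% and in none of the 7. These are counts of letters and say nothing of binding.

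Levels are given as RPM, the reads of a gene per 1000000 reads of the library, which were recovered from the deposited FPKM values. Library totals were 11074998 to 14515300 reads, and the 9 genes had between 671 reads (Crebbp) and 5122 reads (Kdm1a) in a library. Smarcb1 itself was at 84.7, 86.0 and 97.8 RPM in the 48 h ctrl libraries and at 82.2, 88.3 and 84.5 RPM in the 240 h ctrl libraries. It lay between 12.5 and 20.4 RPM in all 9 kd libraries, with log2 fold changes of -2.50 ± 0.14 (SE), -2.67 ± 0.08 and -2.37 ± 0.07 for 48 h, 72 h and 240 h. The summed level of 5 ESC markers (Pou5f1, Sox2, Nanog, Zfp42, Esrrb) was 3835 to 4014 RPM in 48 h ctrl. It was 3445 to 3872 RPM in 48 h kd and 3698 to 3821 RPM in 72 h kd. At 240 h it was 3618 to 3872 RPM in ctrl and 2958 to 2995 RPM in kd. In 48 h kd Sox2, Zfp42, Esrrb and Nanog were lower past the test (-0.35, -0.33, -0.16 and -0.14 on the log2 scale). Pou5f1 did not pass there (0.20, limma, adjusted p = 0.0878). At 240 h 3 of the 5 passed, all lower, and mean Esrrb went from 821 RPM in ctrl to 472 RPM in kd. Summed over each list, fibroblast markers reached 23.1 RPM, primitive endoderm markers 13.1 RPM and trophoblast markers 10.1 RPM, each highest in 240 h kd, with the fibroblast marker Lum at 0 in all libraries of 48 h ctrl, 48 h kd and 240 h ctrl and Dcn at 0 in those of 48 h kd. Neural markers summed to 213 to 222 RPM in 48 h ctrl, 234 to 272 RPM in 48 h kd and 177 to 195 RPM in 72 h kd, and to 195 to 217 RPM in 240 h ctrl against 279 to 291 RPM in 240 h kd, with no overlap between a kd group and its control. Members of these lists moved in opposite directions: Sox1 was higher (1.31, 1.75 and 1.56 on the log2 scale at the 3 times) while Pax6 and Map2 were lower at 48 h and 72 h (Pax6 -1.45 and -1.74, Map2 -0.70 and -1.36) and Tubb3 was lower at 72 h (-0.88). In 240 h kd Col1a1, Hand1 and Cdx2 were higher (1.79, 2.97 and 2.05) and Eomes and Thy1 lower (-1.03 and -0.50), all past the test. In bulk RNA, fewer cells of a type and less RNA per cell cannot be told apart, and the part of these shifts in the results below was not tested. Library 2 of 48 h kd stood apart from its group, with 2.53% mitochondrial reads against 0.507% to 1.95% in the other 14 libraries, and library 3 of 240 h ctrl, which held the lowest share, also stood apart from its group. Between them and the libraries of their group, chi-square over degrees of freedom was 9.14 to 11.3 and 5.02 to 8.89, where all other pairs within a group were at 4.45 or less.

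Per exonic length, the order of the 9 genes was steep. Kdm1a was highest with a median over the 15 libraries of 66.0 exonic RPKM, that is RPM per kb of exon (range 53.8 to 74.8), followed by Hdac1 with 51.8 (37.4 to 56.5) and Hdac2 with 50.7 (38.3 to 58.4). Kmt2b, at 21.8, came next and did not overlap Hdac2. Ep300 (13.4), Kmt2d (10.6), Kdm6a (9.65), Kmt2c (5.64) and Crebbp (5.05) closed the order, and each of these neighbours overlapped the next in range. On this scale Kdm1a, Hdac1 and Hdac2 stood above the other 6 genes in every library. Reads had been counted over the whole gene span, introns included, so these levels hold intronic reads as well. Apart from Kdm1a, genes overlapping the 9 held at most 1.31% of a member's reads. Luzp1, which overlaps Kdm1a, held up to 95.9% as many reads as Kdm1a. How many of them count for Kdm1a is not known, so its level and its rank are less certain.

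**Figure D1:**
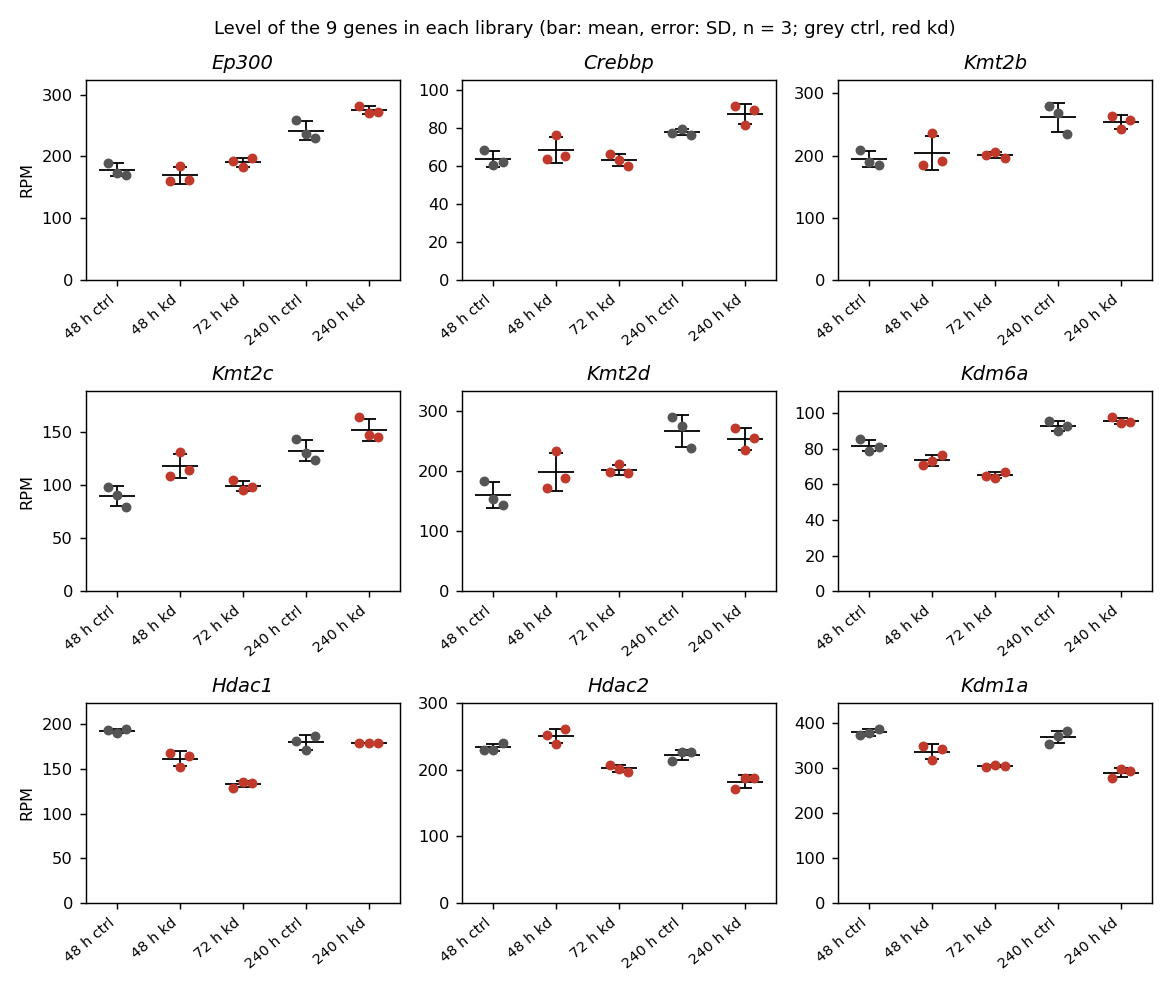
RPM of each gene (vertical axes, starting at 0) in the 15 libraries, by group (horizontal axes), with points for libraries (grey ctrl, red kd), bars for group means and error bars for the SD of 3 libraries. Kdm1a is lower in kd than in ctrl at each time, Hdac1 is lowest at 72 h kd, and Ep300, Crebbp, Kmt2d and Kdm6a are higher in all 6 libraries of 240 h than in the 9 earlier ones. How many of all genes are separated in this way was not counted.

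Hdac1 (ENSMUSG00000028800.15, chr4:129516104-129542713, minus strand, GRCm38) was at 193, 190.0 and 195 RPM in the 48 h ctrl libraries. It was at 167, 152 and 164 RPM in 48 h kd and at 129, 136 and 134 RPM in 72 h kd. These 3 groups did not overlap and stepped down in this order. At 240 h the ctrl libraries held 181, 171 and 187 RPM and the kd libraries 178, 179 and 179 RPM, so the kd values lay inside the range of the ctrl values. The log2 fold change was -0.26 ± 0.05 (SE) at 48 h (limma, adjusted p = 0.00271), -0.54 ± 0.04 at 72 h (adjusted p = 1.79e-11) and -0.00 ± 0.04 at 240 h (adjusted p = 0.942, 95% interval -0.10 to 0.09). The effect at 240 h differed from that at 48 h by 0.25 ± 0.06 on the log2 scale (interaction term over 12 libraries, adjusted p = 0.00973). Within the kd series Hdac1 fell by 0.28 on the log2 scale from 48 h to 72 h (adjusted p = 0.000956) and rose by 0.43 from 72 h to 240 h (adjusted p = 4.01e-11). At 48 h and at 72 h the fall passed the test in all 19 alternative fits.

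Hdac2 (ENSMUSG00000019777.16, chr10:36974544-37001889, plus strand) took another course. Its level was 231, 230.5 and 240.3 RPM in 48 h ctrl and 252, 239 and 261 RPM in 48 h kd, with overlapping groups. It dropped to 207, 201 and 197 RPM in 72 h kd, below every 48 h library. The 240 h ctrl libraries were at 213, 227 and 227 RPM and the 240 h kd libraries at 171, 188 and 187 RPM, the lowest group of the series. The log2 fold change was 0.10 ± 0.05 at 48 h (limma, adjusted p = 0.160), -0.21 ± 0.04 at 72 h (adjusted p = 3.35e-05) and -0.29 ± 0.05 at 240 h (adjusted p = 0.000119). The interaction term was -0.39 ± 0.07 (adjusted p = 0.000527), opposite in sign to that of Hdac1. Without library 2 of 48 h kd the 48 h difference of Hdac2 passed the test (log2 fold change 0.13, adjusted p = 0.0205).

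The balance of the deacetylases shifted one way at 48 h and the other way at 240 h. The ratio of Hdac1 to Hdac2 RPM within a library was 0.838, 0.825 and 0.810 for 48 h ctrl against 0.665, 0.635 and 0.629 for 48 h kd. It was 0.849, 0.753 and 0.823 for 240 h ctrl against 1.04, 0.949 and 0.957 for 240 h kd. Every kd library lay below ctrl at 48 h and above ctrl at 240 h. On the log2 scale the kd minus ctrl difference was -0.36 at 48 h and 0.28 at 240 h, so that averaged over both times it was -0.04 (exact permutation within times, two-sided, p = 0.69). In 72 h kd the ratio was 0.621 to 0.680, overlapping 48 h kd.

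Kdm1a (ENSMUSG00000036940.15, chr4:136550540-136602723, minus strand) was at 373, 378 and 387 RPM in 48 h ctrl and at 355, 371 and 382 RPM in 240 h ctrl. The kd libraries were at 349.9, 318 and 342 RPM at 48 h, at 303, 308 and 306 RPM at 72 h and at 278, 299 and 294 RPM at 240 h. No kd library reached the lowest ctrl library of either time. The log2 fold change was -0.17 ± 0.05 at 48 h (limma, adjusted p = 0.0236), -0.31 ± 0.03 at 72 h (adjusted p = 2.91e-08) and -0.35 ± 0.04 at 240 h (adjusted p = 6.08e-06). The fall at 72 h and at 240 h passed in all 19 alternative fits, whereas that at 48 h was negative in 19 and passed in 10, with adjusted p-values of 0.00323 to 0.0981. It did not pass without replicate 3 of 48 h kd (adjusted p = 0.0568) or without replicate 1, 2 or 3 of 48 h ctrl (adjusted p = 0.0516, 0.0893 and 0.0981). The interaction term of -0.17 ± 0.07 did not pass (adjusted p = 0.0703). The gene shares 4241 bp at its 3′ end with Luzp1 on the opposite strand, and reads were counted without regard to strand. Luzp1 held 3216 to 4226 reads in a library, up to 95.9% of those of Kdm1a, and how many of them lie in the shared stretch is not known from these values. It had log2 fold changes of -0.11 (adjusted p = 0.0957), -0.18 (adjusted p = 9.38e-05) and -0.17 (adjusted p = 0.00344) at the 3 times, each smaller in size than that of Kdm1a.

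The acetyltransferase Ep300 (ENSMUSG00000055024.12, chr15:81585351-81652077, plus strand) was at 189.9, 174 and 170.3 RPM in 48 h ctrl and at 161, 185 and 162 RPM in 48 h kd. It was at 192, 182 and 197 RPM in 72 h kd. These 3 groups overlapped, and neither kd group passed against 48 h ctrl: the log2 fold change was -0.07 ± 0.06 at 48 h (limma, adjusted p = 0.436) and 0.10 ± 0.04 at 72 h (adjusted p = 0.0512). The 72 h value passed in 6 of 19 alternative fits that kept this control (adjusted p-values of 0.00211 to 0.638), and the 48 h value passed without library 2 of 48 h kd (-0.14, adjusted p = 0.0354). In 240 h ctrl it was at 259, 235 and 229.8 RPM and in 240 h kd at 282, 271 and 272 RPM, with the groups apart. The rise in 240 h kd was 0.19 ± 0.05 on the log2 scale (adjusted p = 0.00390) and passed in 18 of 19 alternative fits. The interaction term was 0.26 ± 0.08 (adjusted p = 0.0340), and it passed in 13 of 25 alternative fits, with adjusted p-values of 0.00199 to 0.105.

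Its relative Crebbp (ENSMUSG00000022521.10, chr16:4081328-4213997, minus strand) had the lowest median of the 9 genes per exonic length. It ranged from 59.9 to 76.1 RPM over the 9 libraries of 48 h and 72 h, and these 3 groups overlapped. In 240 h ctrl it was at 77.3, 79.2 and 76.3 RPM and in 240 h kd at 91.5, 81.4 and 89.3 RPM. The kd difference was 0.17 ± 0.05 at 240 h (limma, adjusted p = 0.0158), against 0.10 ± 0.08 at 48 h (adjusted p = 0.377) and -0.01 ± 0.05 at 72 h (adjusted p = 0.867). The 240 h rise did not pass without replicate 1 or without replicate 3 of 240 h kd (adjusted p = 0.0797 and 0.0769). The ratio of Ep300 to Crebbp was 2.80 ± 0.06 (SD, n = 3) for 48 h ctrl and 2.48 ± 0.05 for 48 h kd. It stood at 3.03 ± 0.23 for 72 h kd, 3.11 ± 0.21 for 240 h ctrl and 3.15 ± 0.15 for 240 h kd. The kd difference of the log2 ratio was -0.17 at 48 h, with the groups apart, and 0.02 at 240 h, with overlap. Over both times it was -0.08 (exact permutation within times, p = 0.17, adjusted over the 3 pairs 0.255).

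Among the H3K4 methyltransferases, Kmt2c (ENSMUSG00000038056.15, chr5:25271798-25498783, minus strand), which spans 227 kb, was at 98.6, 91.2 and 79.7 RPM in 48 h ctrl and at 109, 131 and 114 RPM in 48 h kd. It was at 105, 95.9 and 98.6 RPM in 72 h kd, overlapping 48 h ctrl. In 240 h ctrl it was at 143, 131 and 124 RPM and in 240 h kd at 164, 147 and 146 RPM. At both times with a matched control all kd libraries were above all ctrl libraries. The log2 fold change was 0.40 ± 0.08 at 48 h (limma, adjusted p = 0.00387), 0.16 ± 0.06 at 72 h (adjusted p = 0.0215) and 0.20 ± 0.06 at 240 h (adjusted p = 0.0104). The rise at 48 h passed in 17 of 18 alternative fits, that at 72 h in 13 of 18 that kept 48 h ctrl as the control and that at 240 h in 16 of 19. Taking 240 h ctrl or all 6 ctrl libraries as the control turned the 72 h value to -0.41 (adjusted p = 8.29e-06) or -0.125 (adjusted p = 0.0625). It did not pass at 72 h without replicate 3 of 48 h ctrl (log2 fold change 0.07, adjusted p = 0.219) or without replicate 1 of 72 h kd (0.12, adjusted p = 0.114), nor at 240 h without replicate 1 of 240 h kd (0.14, adjusted p = 0.0747).

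Kmt2d (ENSMUSG00000048154.17, chr15:98831669-98871204, minus strand) spread more widely between libraries. It was at 184, 153 and 143 RPM in 48 h ctrl, at 172, 233 and 188 RPM in 48 h kd and at 198, 212 and 197 RPM in 72 h kd. Library 2 of 48 h kd held the highest value of the 48 h and 72 h groups. At 240 h the ctrl libraries were at 289, 275 and 237 RPM and the kd libraries at 271, 235 and 255 RPM, with overlap. The log2 fold change was 0.30 ± 0.11 at 48 h (limma, adjusted p = 0.0522), 0.35 ± 0.06 at 72 h (adjusted p = 1.89e-05; -0.40 against 240 h ctrl and -0.02 against all 6 ctrl libraries) and -0.07 ± 0.06 at 240 h (adjusted p = 0.384). Without library 2 of 48 h kd the 48 h value was 0.18 and passed (adjusted p = 0.0474), and without library 3 of 240 h ctrl the 240 h value was -0.15 and passed (adjusted p = 0.0133). The interaction term of Kmt2d was -0.38 ± 0.14 (adjusted p = 0.0761), and it passed in 5 of 25 alternative fits, with values of -0.48 to -0.25 over all 25. Kmt2b (ENSMUSG00000006307.16, chr7:30568858-30588726, minus strand) did not pass in any kd comparison: its log2 fold changes were 0.06 ± 0.08, 0.05 ± 0.04 and -0.04 ± 0.06, with 95% intervals of -0.12 to 0.24, -0.04 to 0.14 and -0.16 to 0.08 for 48 h, 72 h and 240 h. In alternative fits it passed in either direction, at 72 h with -0.12 after trends of GC content and gene span were removed (adjusted p = 0.0134) and with 0.10 without replicate 1 of 48 h ctrl (adjusted p = 0.0204), and at 240 h with -0.11 without replicate 3 of 240 h ctrl (adjusted p = 0.0377). It lay at 184 to 236 RPM at 48 h and 72 h and at 235 to 280.0 RPM at 240 h.

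The ratio of Kmt2c to Kmt2d, which is free of the library total, was higher in kd at 240 h. It was 0.564 ± 0.030 (SD, n = 3) in 48 h ctrl and 0.602 ± 0.036 in 48 h kd, with overlap, and 0.498 ± 0.023 in 240 h ctrl and 0.602 ± 0.028 in 240 h kd, without. The difference of the log2 ratio was 0.18 over both times (exact permutation within times, two-sided, p = 0.01, adjusted over the 3 pairs 0.03). Leaving out 1 of the 12 libraries at a time gave differences of 0.16 to 0.21 and adjusted p-values of 0.03 to 0.06, and the 4 at 0.06 were those without replicate 1 or 3 of 48 h kd or of 48 h ctrl. In 72 h kd the ratio was 0.495 ± 0.039, all 3 libraries being below the 48 h ctrl libraries.

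**Figure D2:**
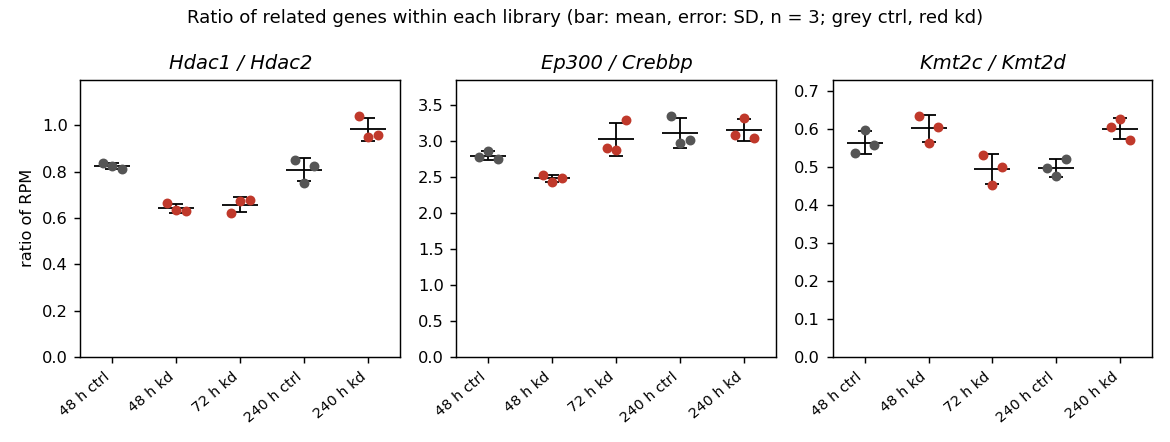
Ratio of the RPM of 2 related genes within each library (vertical axes, starting at 0), by group, with points for libraries (grey ctrl, red kd), bars for means and error bars for the SD of 3 libraries. Hdac1 over Hdac2 is below ctrl in kd at 48 h and above ctrl at 240 h, and Kmt2c over Kmt2d is higher in kd than in ctrl at 240 h.

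The demethylase Kdm6a (ENSMUSG00000037369.17, chrX:18162575-18279936, plus strand) stepped down over 48 h and 72 h of knockdown and overlapped its control at 240 h. It was at 85.2, 78.8 and 80.9 RPM in 48 h ctrl, at 70.6, 73.3 and 76.6 RPM in 48 h kd and at 64.6, 63.6 and 66.8 RPM in 72 h kd, with no overlap between these groups. In 240 h ctrl it was at 95.4, 89.9 and 92.5 RPM and in 240 h kd at 97.5, 94.4 and 94.7 RPM. The log2 fold change was -0.15 ± 0.06 at 48 h (limma, adjusted p = 0.0669), -0.33 ± 0.05 at 72 h (adjusted p = 2.13e-06) and 0.04 ± 0.05 at 240 h (adjusted p = 0.468). The interaction term of 0.20 ± 0.07 did not pass (adjusted p = 0.0521). From 72 h to 240 h of knockdown Kdm6a rose by 0.55 on the log2 scale (adjusted p = 8.33e-12).

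Shares of the 9 genes that passed were set against those of all genes tested. At 48 h 3 of 9 passed the test (1 higher and 2 lower), where 26.6% of 15669 genes did (13.1% higher and 13.5% lower). At 72 h 6 of 9 passed (2 higher and 4 lower), against 63.0% of 15611 genes (33.1% and 29.9%). Against 240 h ctrl instead, all 9 were lower and passed, beside 5291 genes higher and 4772 lower of 15627. Against all 6 ctrl libraries all 9 were lower and all but Kmt2c and Kmt2d passed, beside 5409 higher and 5070 lower of 15641. With a library left out 5 to 8 of the 9 passed at 72 h, against 57.6% to 61.0% of all genes. At 240 h 5 of 9 passed (3 higher and 2 lower), against 46.2% of 15877 genes (23.7% and 22.5%). The effect differed between 240 h and 48 h for 3 of 9 (2 with a higher and 1 with a lower value at 240 h), against 21.0% of 15781 genes (10.6% and 10.3%), and none of the 3 differed by over 0.58, as 10.6% of all genes did. With the threshold of the study added, an absolute log2 fold change above 0.58, none of the 9 was called at any of the 3 times in the main fit. Of all genes, from 1 RPM up, 9.21%, 22.0% and 17.3% were. With a minimum of 10 RPM, which all 9 exceed, 258 genes were called higher and 258 lower of 10388 at 48 h. At 72 h it was 968 and 566 of 10504, and at 240 h 514 and 500 of 10345. Over the alternative fits, all of which Hdac1 passed at 72 h, its value there ranged from -0.61 to -0.51, so at its lowest past 0.58. Groups did not overlap for 4, 5 and 5 of the 9 genes at 48 h, 72 h and 240 h, against 42.0%, 66.1% and 53.9% of all genes. The median log2 fold change of the 9 was 0.06, -0.01 and -0.00 at the 3 times, beside 0.01, 0.02 and 0.01 over all genes. Without library 2 of 48 h kd, 7 of 9 passed at 48 h (3 higher and 4 lower), against 31.1% of all genes. Without library 3 of 240 h ctrl, 7 of 9 passed at 240 h (3 higher and 4 lower), against 48.0% of all genes.

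**Figure D3:**
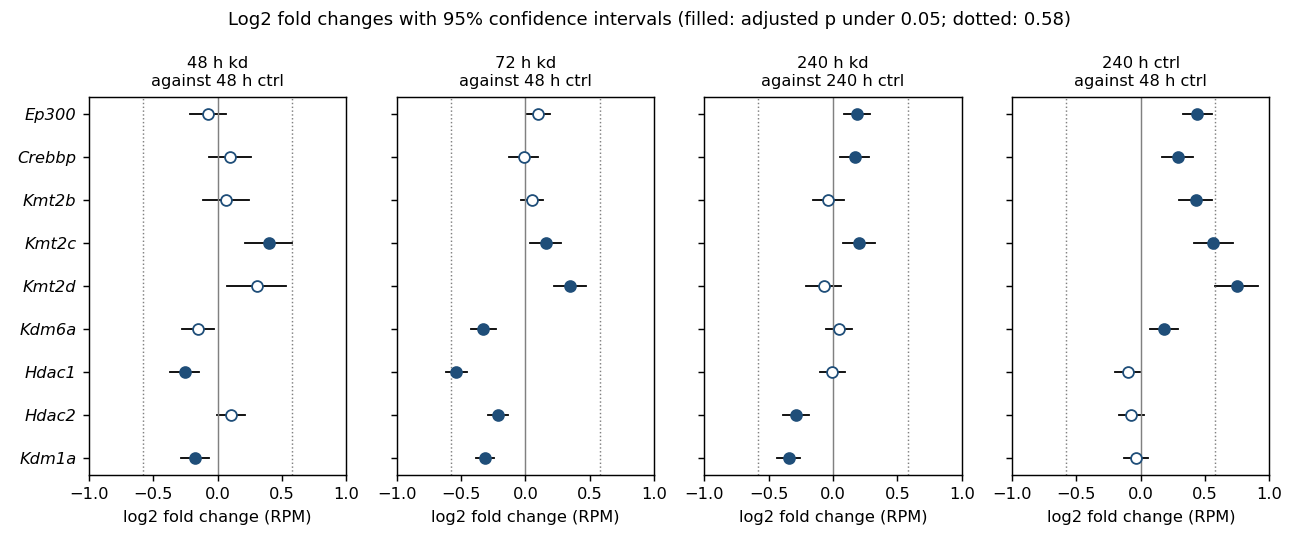
Log2 fold changes of the 9 genes (horizontal axes) in 4 comparisons, with points filled where the limma adjusted p was under 0.05, lines for 95% confidence intervals and dotted lines at an absolute log2 fold change of 0.58. No filled point passes 0.58 in the 3 kd comparisons, and Kmt2d passes it between 240 h ctrl and 48 h ctrl.

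The control groups themselves differed. Between 240 h ctrl and 48 h ctrl, 6 of the 9 genes were higher and none was lower (limma, adjusted p under 0.05), where 13.3% of 15660 genes passed, 6.92% higher and 6.33% lower. Kmt2d rose by 0.74 ± 0.08 (SE) on the log2 scale (adjusted p = 4.50e-05), Kmt2c by 0.57 ± 0.07 (adjusted p = 0.000123), Ep300 by 0.44 ± 0.05 (adjusted p = 0.000123), Kmt2b by 0.43 ± 0.06 (adjusted p = 0.000411), Crebbp by 0.29 ± 0.06 (adjusted p = 0.00410) and Kdm6a by 0.18 ± 0.05 (adjusted p = 0.0285). Only Kmt2d was called with the fold threshold in the main fit, where 1.38% of all genes were. The other 3 did not pass, with Hdac1 at -0.10 (adjusted p = 0.159, 95% interval -0.20 to -0.00), Hdac2 at -0.07 (adjusted p = 0.308) and Kdm1a at -0.04 (adjusted p = 0.593). Groups were apart for 8 of the 9 genes, against 32.5% of all genes. When the prior variance was given no trend, none of the 9 and 52 of all genes passed, with adjusted p-values of 0.0559 to 0.126 for the 6, whose log2 fold changes this setting leaves as they are. The rise of Kdm6a did not pass without replicate 2 or 3 of 48 h ctrl (adjusted p = 0.153 and 0.105) or without replicate 1 or 2 of 240 h ctrl (0.0804 and 0.0647).

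Long mRNAs moved in the same direction between these control groups. Of the 961 coding genes that were longest in exonic sequence (at least 10340 bp), to which Ep300, Crebbp, Kmt2c and Kmt2d belong by length, 29.7% were higher in 240 h ctrl and 4.99% lower, and their median log2 fold change was 0.10, beside -0.02 over all genes. Their median deviation from the mean of all libraries ranged from -0.08 to -0.00 over the 48 h ctrl libraries and from 0.01 to 0.12 over those of 240 h ctrl. In 48 h kd it was 0.06 in library 2 and -0.05 in both others. The rise of Kmt2d between the controls was 0.62 to 0.85 over the 19 alternative fits, the lowest being that with trends of GC content and exonic length removed, and passed in 18. Whether this shift of long mRNAs comes from the cells or the libraries was not tested.

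**Figure D4:**
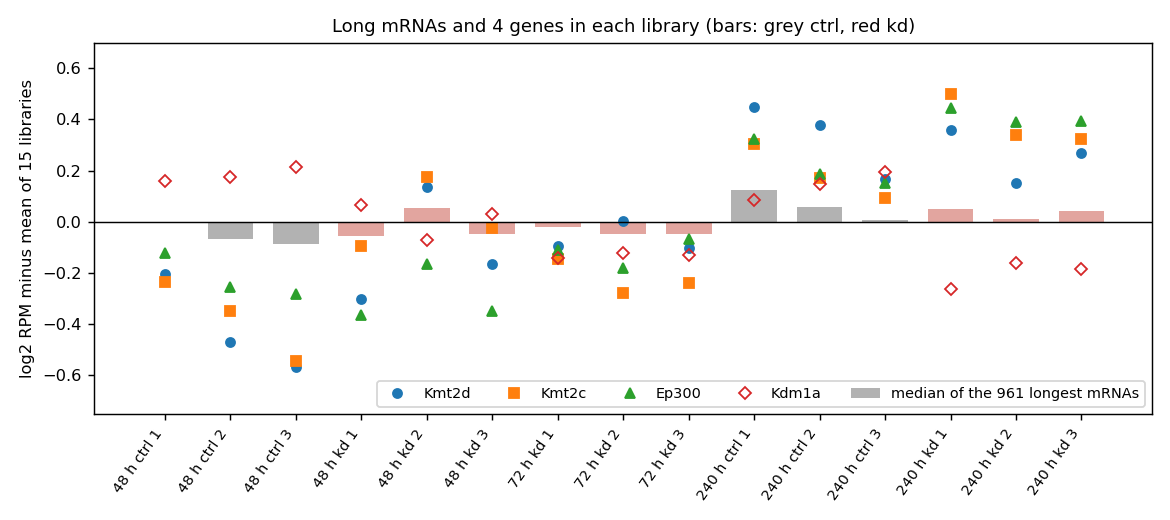
Deviation of log2 RPM from the mean of the 15 libraries (vertical axis) for the median of the 961 longest coding mRNAs (bars, grey ctrl and red kd) and for Kmt2d, Kmt2c, Ep300 and Kdm1a (symbols), in each library (horizontal axis). The bars are highest in 240 h ctrl 1 and lowest in 48 h ctrl 3, and Kmt2d, Kmt2c and Ep300 lie below 0 in 48 h ctrl and above 0 in every 240 h library.

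Since 72 h had no control of its own, the direction of 4 genes at 72 h rested on which control was taken. Against 240 h ctrl in place of 48 h ctrl, the log2 fold change in 72 h kd was -0.34 for Ep300, -0.37 for Kmt2b, -0.41 for Kmt2c and -0.40 for Kmt2d (adjusted p = 1.66e-05, 1.67e-05, 8.3e-06 and 2.2e-05). Crebbp was then at -0.30 (adjusted p = 9.56e-05). The falls kept their direction and passed with either control for Hdac1 (-0.43), Hdac2 (-0.14), Kdm6a (-0.51) and Kdm1a (-0.27), the values being those against 240 h ctrl.

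Within the knockdown series, where the same kd libraries enter as above, 6 of 9 genes passed between 48 h and 72 h, 1 higher (Ep300, 0.17) and 5 lower (Hdac2 -0.31, Hdac1 -0.28, Kmt2c -0.24, Kdm6a -0.18, Kdm1a -0.14), against 43.8% of 15590 genes (24.4% higher and 19.4% lower). Groups were apart for 5 of the 9, against 54.2% of all genes, and none of the 9 was past 0.58, as 12.8% of all genes were. The falls of Hdac1 and Hdac2 passed in all 19 alternative fits. Those of Kmt2c, Kdm6a and Kdm1a and the rise of Ep300 passed in 15 of 18, 12, 11 and 10 of 19, and each lost the call when single libraries were left out. Without replicate 3 of 72 h kd the adjusted p was 0.0518 for Kmt2c, 0.106 for Kdm1a and 0.137 for Ep300, and without replicate 2 of 72 h kd it was 0.0776 for Kdm6a and 0.0643 for Kmt2c. Between 72 h and 240 h, 8 of 9 passed (7 higher and 1 lower), against 66.5% of 15755 genes (31.7% and 34.7%). Kmt2c rose by 0.61, Kdm6a by 0.55, Ep300 by 0.53, Crebbp by 0.47, Hdac1 by 0.43, Kmt2b by 0.34 and Kmt2d by 0.32 on the log2 scale, and Hdac2 fell by 0.15. With median centring Hdac2 was at -0.05 and did not pass (adjusted p = 0.231), nor did it without the variance trend (adjusted p = 0.0532). Kdm1a was at -0.07 (adjusted p = 0.0535). All 9 genes had groups apart in this step, against 69.2% of all genes. Kmt2c alone was past 0.58 in the main fit, where 24.4% of all genes were. Its value was 0.55 to 0.64 when a library was left out, and over the alternative fits Kdm6a reached 0.65 and Ep300 0.62.

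The wider set of 76 related genes, in 6 lists of acetyltransferases, deacetylases, methyltransferase subunits, demethylases and acetyl-lysine readers, held single members with larger changes. Past the test and past 0.58 were 1.35%, 13.3% and 10.5% of those tested at the 3 times, beside 9.21%, 22.0% and 17.3% of all genes, a difference that was not tested. The shares of all genes include low genes, whereas most of the listed genes exceed 10 RPM. With that minimum, 258 of all genes were called higher and 258 lower of 10388 at 48 h. It was 968 and 566 of 10504 at 72 h, and 514 and 500 of 10345 at 240 h. At 48 h 10 of 74 tested were higher and 8 lower, at 72 h 30 and 17 of 75, and at 240 h 21 and 27 of 76 (limma, adjusted p under 0.05). That is 24.3%, 62.7% and 63.2% of those tested, beside 26.6%, 63.0% and 46.2% of all genes. The counts of each list below stand beside 33.1% of all genes higher and 29.9% lower at 72 h, and 23.7% and 22.5% at 240 h. Their median log2 fold changes were 0.01, 0.04 and -0.04. Among the 12 other acetyltransferases, 7 were higher and 1 lower at 72 h, and 5 and 4 at 240 h. The one lower at 72 h was the MYST family acetyltransferase Kat6b. The Kat6b libraries held 243 to 269 RPM for 48 h ctrl against 185 to 205 RPM for 48 h kd, and 303 to 324 RPM for 240 h ctrl against 167 to 192 RPM for 240 h kd. Its log2 fold changes were -0.39, -0.53 and -0.83 after 48 h, 72 h and 240 h, with an interaction of -0.44 (adjusted p = 0.000793). The coactivator Ncoa3, which binds p300 and CBP, was higher by 0.61, 0.60 and 0.73 on that scale.

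Among 25 genes of the class I deacetylase complexes, the deacetylases Hdac3 and Hdac8 included, 8 were higher and 6 lower at 72 h, and 6 and 6 at 240 h. Tbl1xr1, a subunit of the NCoR complex, had log2 fold changes of -0.21, -0.72 and -0.30, all past the test. Gps2, of the same complex, passed at 72 h alone (0.63, adjusted p = 9.90e-07). Of 11 other deacetylases, 5 were higher and 1 lower at 72 h, and 3 and 6 at 240 h. The cytoplasmic tubulin deacetylase Hdac6 averaged 85.0 ± 4.64 RPM (SD, n = 3) for 48 h ctrl against 109 ± 4.31 RPM for 48 h kd, and 90.1 ± 3.06 RPM for 240 h ctrl against 179.9 ± 3.15 RPM for 240 h kd. Its log2 fold changes were 0.36, 1.09 and 1.00, with an interaction of 0.64 (adjusted p = 3.76e-06). Hdac4, Hdac10 and Hdac11 had log2 fold changes of -0.59, -0.72 and -0.68 at 240 h, all past the test. At 72 h they were at -0.25 (adjusted p = 0.00108), -0.06 (adjusted p = 0.642) and 0.37 (adjusted p = 0.00283), so Hdac11 was higher at 72 h and lower at 240 h.

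In the complexes around the methyltransferases, 4 of 16 genes were higher and 7 lower at 72 h, and 4 and 5 at 240 h. The shared core subunits Ash2l and Dpy30 went opposite ways. Ash2l had log2 fold changes of 0.24, 0.70 and 0.49, all past the test, and Dpy30 of -0.13 (adjusted p = 0.0637), -0.68 (adjusted p = 1.27e-12) and -0.34 (adjusted p = 7.15e-05). Setd1b, an H3K4 methyltransferase of the COMPASS type, fell by 0.69 at 72 h and was at -0.08 at 240 h (adjusted p = 0.203). Of 5 other demethylases, 1 was higher and 2 lower at 72 h, and none higher and 4 lower at 240 h. Kdm1b, the relative of Kdm1a, had log2 fold changes of -0.24, -0.70 and -0.21, and Kdm6b, the relative of Kdm6a, of 0.22, 0.63 and -0.37 (interaction -0.59, adjusted p = 6.68e-05). Among the genes named, Ncoa3, Tbl1xr1, Hdac4, Hdac11, Kdm1b and Kdm6b overlap other annotated genes, so their values are less certain. Of 7 acetyl-lysine readers and p300 or CBP partners, 5 of 6 tested were higher at 72 h and none lower, and 3 were higher and 2 lower at 240 h. The partners Cited1 and Cited4 had few reads and rose at 240 h by 1.87 and 1.16, from 1.01 ± 0.281 to 3.91 ± 0.716 RPM and from 0.798 ± 0.129 to 1.91 ± 0.379 RPM (SD, n = 3).

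**Figure D5:**
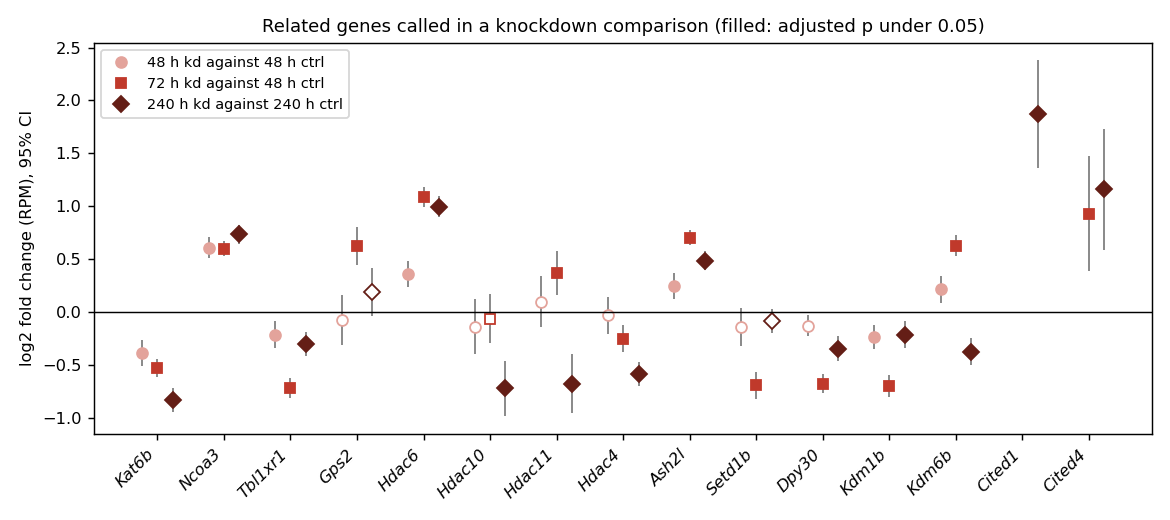
Log2 fold changes (vertical axis) with 95% confidence intervals of the 15 listed genes past the study's thresholds in a knockdown comparison (horizontal axis), by comparison, with symbols filled where the limma adjusted p was under 0.05. Hdac6, Ncoa3 and Ash2l are above 0 and Kat6b, Tbl1xr1 and Kdm1b below 0 at all 3 times, and Kdm6b changes sign at 240 h.

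Likeness of pattern was measured as the root mean square difference of mean-centred log2 group means over the 5 groups, among up to 9512 genes of at least 10 RPM. The nearest gene to Kdm1a was Dnaaf2 (0.01), then Zfp37 and Bex4 (both 0.02). For the 8 genes past the test in a kd comparison the 3 nearest genes were sought. They were Nek4, Ost4 and Cfl1 for Hdac1, Lin52, Mrpl14 and Lrrc45 for Hdac2, Selenot, Pop1 and Scaf8 for Kdm6a, and Arid1a, Ncdn and Myh10 for Crebbp, all at 0.02 to 0.04. Akap13, Ubr4 and Hectd4 were nearest to Ep300, Mdn1, Atm and Ash1l to Kmt2c, and Usp9x, Mdn1 and Prrg4 to Kmt2d, at 0.05 to 0.10. Mdn1 was thus near both Kmt2c and Kmt2d. Among the 9 genes the nearest pair was Crebbp and Kmt2b (0.07), followed by Hdac2 and Kdm1a (0.11), and the related pair Hdac1 and Hdac2 was at 0.23. Kdm6a was nearer to Hdac1 (0.12) than to its complex partners Kmt2c (0.20) and Kmt2d (0.23).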

How the data were processed

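RNA-seq of total RNA was analysed in 15 libraries (5 groups of 3; single reads). Groups followed the submitters' labels, which do not say whether libraries of a group came from separate cultures, so p-values measure the spread between libraries. Per the submitters' notes, reads were processed with STAR 2.7.0c, and DESeq2 1.30.0 under R 4.0.3 served the study's own tests. The authors deposited FPKM per gene for the mouse build GRCm38 (mm10). The deposited FPKM values proved to be reads per kb of whole gene span and per 1000000 library reads: every value gave a whole read count (tolerance 0.001), and reads summed over genes exceeded the library totals by 7.38% to 8.34%, so some reads count for several genes. Strand was not used: where a gene lies within the span of another and had at least 100 reads over all libraries, the outer gene had at least as many, both in all 980 same-strand and in all 1222 opposite-strand pairs. The treatment of reads with several positions is not given in the sources used here. The read numbers limit the precision of low genes, and reads without molecular identifiers are not independent molecules.

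RPM was obtained as FPKM times span in kb. Exonic lengths came from GENCODE M21, which matched 53297 of 55228 genes (96.5%). Genes with a mean of at least 1 RPM in the libraries compared were tested on log2(RPM + 0.1) with limma 3.58.1 (R 4.3.3; moderated test with a variance trend). Fold changes are on that scale. P-values were adjusted by Benjamini-Hochberg over all genes tested, and a gene passed at an adjusted p under 0.05; an absolute log2 fold change above 0.58 was added as the study's threshold. As in the study, 72 h kd was set against 48 h ctrl. Comparisons that share libraries are not independent. Ratios were tested by exact permutation of kd and ctrl within times (400 arrangements, smallest two-sided p 0.005). With 3 libraries against 3 an exact test cannot go below 0.1 for a single gene. Data were also simulated with 200 genes of at least 10 RPM changed 2-fold, and genes past both the test and 0.58 were counted. The fit recovered 200 in each of the 6 group comparisons and 198 for the interaction, with 0 to 6 false calls. Shifts under 0.58 were not simulated, so these counts do not tell how well such shifts are called. Figures were drawn with Python 3.11.15, pandas 2.3.3, numpy 2.4.6 and matplotlib 3.10.9.

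The 9 genes and all gene lists were chosen with earlier results of these data known. The related genes named are those past the study's thresholds in a kd comparison with ctrl, at most 6 of a list, and the genes named for likeness are the 3 nearest to each member that passed in such a comparison, predicted genes and genes overlapping the member left out. Alternatives changed the pseudocount, the minimum level, the scale (FPKM), the library scaling (median centring, quantiles), the test (voom on recovered reads), the samples fitted, the variance trend, the replicate block, the 72 h control, trends of GC content with gene span and, added after the data were seen, with exonic length, and left out each library. Promoter windows came from RefSeq (GRCm38.p6).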

Additional observations from a re-analysis of the deposited data

Results flagged for a closer look

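For 3 of the 9 genes the effect of the knockdown differed between 240 h and 48 h by the interaction term over 12 libraries (limma, adjusted over all genes). The difference was 0.26 on the log2 scale for Ep300 (adjusted p = 0.0340), with -0.07 at 48 h and 0.19 at 240 h. It was 0.25 for Hdac1 (adjusted p = 0.00973), with -0.26 at 48 h and -0.00 at 240 h, and -0.39 for Hdac2 (adjusted p = 0.000527), with 0.10 at 48 h and -0.29 at 240 h. The terms of Hdac1 and Hdac2 passed in all 25 alternative fits and that of Ep300 in 13, keeping its direction in 25. Both times used their own control libraries.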

How the results depend on the processing

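With 3 libraries a group, single libraries decided several calls. Of the 9 genes, 3 passed at 48 h, but 5 in 1 fit of all 15 libraries, 1 on the FPKM scale (of 7 genes above its minimum), 1 without a variance trend, and 2 to 7 when a library was left out, 7 without replicate 2 of 48 h kd. At 240 h 5 passed, against 3 on the FPKM scale, 2 without the trend and 3 to 7 when a library was left out, 3 without replicate 1 of 240 h kd. Between the controls 6 passed, against 2 on the FPKM scale and 0 without the trend. Between 48 h and 72 h kd 6 passed, against 2 on the FPKM scale, 2 without the trend and 3 to 8 when a library was left out. For the interaction 3 passed, against 5 in 1 fit of all libraries, 5 with the GC and span trend removed and 2 to 5 when a library was left out, 5 without replicate 1 of 240 h ctrl. The share of all genes that passed moved as well. With a library left out it was 17.4% to 31.1% at 48 h and 37.7% to 48.0% at 240 h. Between 48 h and 72 h kd it was 33.1% to 50.6%, and for the interaction 16.7% to 21.9%. Without the trend 1492 genes were higher and 1631 lower at 48 h, and 3159 and 2930 at 240 h. The fit of all 15 libraries gave 2680 and 2688 at 48 h, and 1831 and 1798 for the interaction. With the 0.58 threshold added to the main fit, 0 remained at 48 h, 72 h and 240 h, between 48 h and 72 h kd and for the interaction. There, 1 each remained between the controls (Kmt2d) and between 72 h and 240 h kd (Kmt2c). Over the alternative fits Hdac1 at 72 h reached -0.61 and Kmt2c between the controls 0.64. Between 72 h and 240 h kd Kdm6a reached 0.65 and Ep300 0.62, and Kmt2c was at 0.55 to 0.64 when a library was left out.

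Several log2 fold changes turned sign, and the cause was not tested. Kmt2b at 72 h was -0.023 with median centring, -0.12 with the GC and span trend and -0.11 with the GC and exonic length trend removed. Kdm6a at 240 h was -0.0084 with the GC and span trend removed. Kmt2d between 48 h and 72 h kd was -0.013 with median centring, -0.12 with the GC and span trend, -0.10 with the GC and exonic length trend removed, and -0.051 to 0.17 when a library was left out. Kdm1a between 72 h and 240 h kd was 0.022 with median centring. Over the fits that left out 1 library, Kmt2b ranged from -0.046 to 0.13 at 48 h, from -0.11 to 0.013 at 240 h, from -0.077 to 0.097 between 48 h and 72 h kd, and from -0.175 to 0.0078 for the interaction. Crebbp at 72 h ranged from -0.047 to 0.041 and Hdac1 at 240 h from -0.040 to 0.025. The 72 h values against 240 h ctrl were -0.34 for Ep300, -0.37 for Kmt2b, -0.41 for Kmt2c and -0.40 for Kmt2d, and against all 6 ctrl libraries -0.12, -0.16, -0.125 and -0.024. The Kmt2c to Kmt2d difference ranged from 0.16 to 0.21 when a library was left out.

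Over all genes, 4171 passed at 48 h, 9838 at 72 h, 7334 at 240 h, 2076 between the controls, 6830 and 10475 in the later kd steps and 3308 for the interaction, against 1844, 6290, 3848, 391, 4081, 6820 and 1778 on the FPKM scale, which tests fewer genes. With median centring the share of higher among the genes that passed went from 52.5% to 42.2% at 72 h, from 52.2% to 65.0% between the controls, from 55.7% to 43.2% between 48 h and 72 h kd and from 47.7% to 59.3% between 72 h and 240 h kd. Between the controls 52 passed without the trend and 763 to 3032 when a library was left out; without replicate 2 of 48 h ctrl 2725 passed at 48 h. Whether replicate numbers pair the libraries is not known. Deviations of same-numbered libraries correlated at -0.23 to 0.20, and differently numbered ones were not compared. Between the controls the correlations were 0.20, -0.024 and 0.14 for replicates 1, 2 and 3. With the replicate block 4116 genes passed between the controls, and among the 9 genes Kdm1a at 48 h no longer passed (adjusted p = 0.055), while Ep300 at 72 h (0.0378), Hdac1 between the controls (0.0293) and Kdm1a between 72 h and 240 h kd (0.0432) did.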
